A study of Rattus norvegicus with 10 samples.

Results

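The chromosome 2 locus analysed here holds 29 lncRNA isoforms, more than any other locus of lncRNAs that the authors assembled from rat brain after ischemic stroke. Its members are all assembled lncRNAs (identifiers beginning with TCONS) listed within chr2:126503053-126791939 of the rn5 genome. They are 29 of 1924 assembled lncRNAs, and 29 of the 32166 transcripts with an expression value. All 29 lie on the minus strand, and no assembled lncRNA is listed on the plus strand of this window. Of the 676 loci of assembled lncRNAs with overlapping spans on 1 strand, those with the next most isoforms held 25 (chr10:25789351-26253611) and 22 (chr1:132545572-132715477).

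The libraries were RNA-seq of brain tissue from 5 male Sprague Dawley rats, P45, P52, P61, P71 and P72, with 1 library from the left and 1 from the right hemisphere of each. In every rat the middle cerebral artery was occluded with a suture for 2 h (MCAO), and tissue was taken 24 h after MCAO from middle coronal slices of both hemispheres. No sham or untreated rat was among these libraries, so the 5 right hemispheres were compared with the 5 left hemispheres of the same rats. The right was read as the ischemic side because the study draws the suture on that side. The study also gives a negative log2 of the left to right ratio for a lncRNA it calls upregulated after stroke. The deficit scale in its methods names the right paw, as a left-sided lesion would give. All differences given here are right minus left as the labels name the sides, whichever side is called ischemic.

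A lncRNA is a long transcript with no apparent coding potential, and a single lncRNA locus can give rise to many isoforms through alternative starts, alternative splicing and alternative ends. Short reads cover only a stretch of each isoform. Where isoforms share exons, Cufflinks divides the shared reads among them by likelihood, so the value of an isoform is an estimate that depends on the others, while the sum over isoforms depends far less on that division. Values were given as FPKM, in which fragments are divided by transcript length and by mapped reads. FPKM is a level per length and holds no read counts. No function is known for this locus from the sources used here, and the 29 isoforms carry no gene name.

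The isoforms fell into 7 groups by the position of their 5′ end, with ends no more than 500 nt from the next placed in 1 group. The distal start, at 126791778-126791939, was used by 6 isoforms, and the proximal start, at 126516888-126517154, by 14 isoforms. These starts were 274.8 kb apart, so most of the locus lay between them. Starts 2, 3 and 4, at 231.7, 260.1 and 262.9 kb downstream of the distal start, had 2 isoforms each. Start 6, 276.9 kb downstream, had 2 isoforms, and start 7 had only TCONS_00058229.

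**Figure D1:**
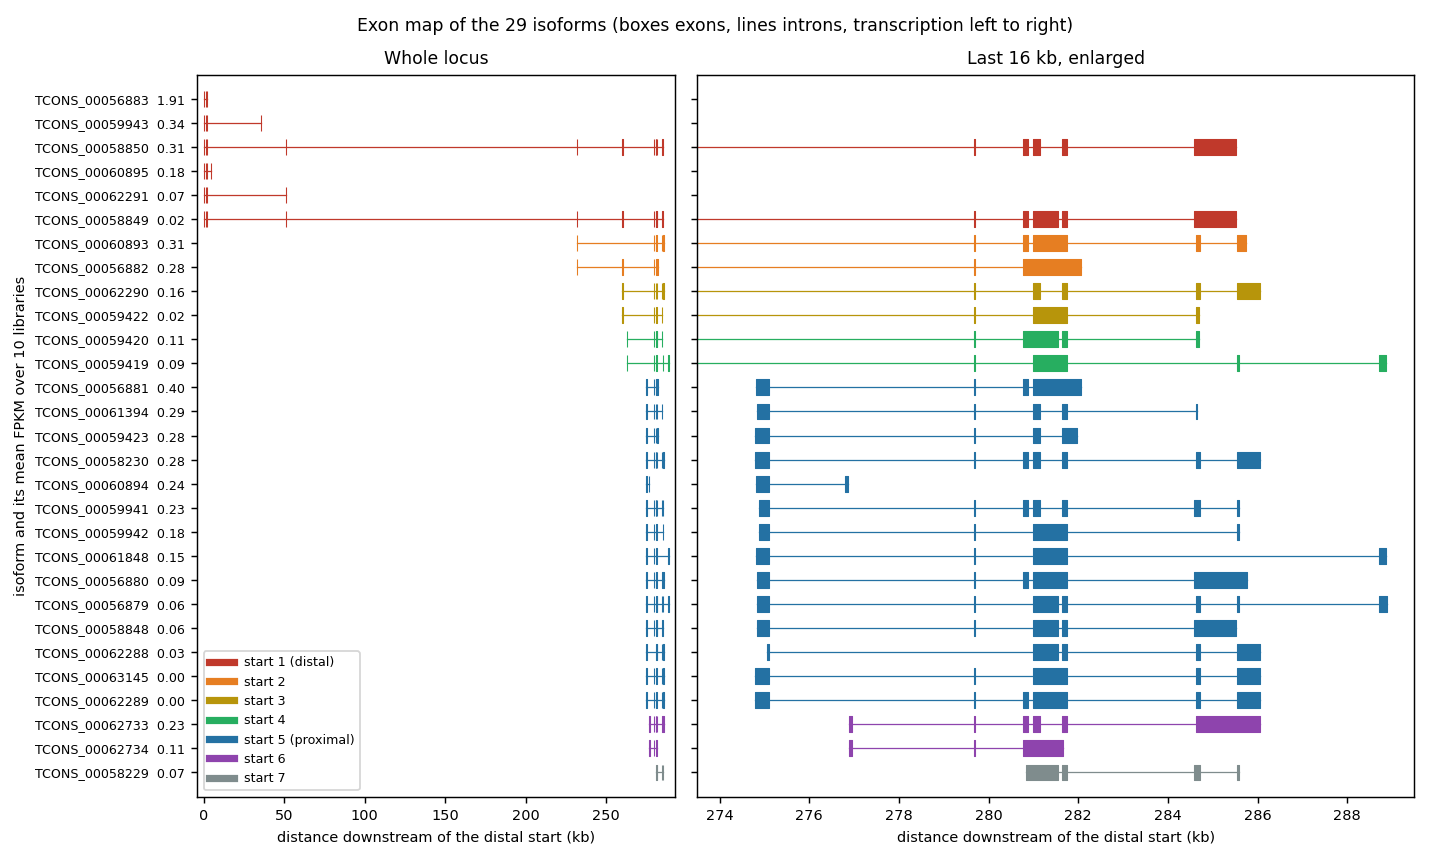
Exon structure of the 29 isoforms, drawn in the direction of transcription with the distance from the distal start in kb on the x axis and 1 isoform per row, labelled with its mean FPKM over 10 libraries. Boxes are exons, lines are introns and colours are start groups; the right panel enlarges the last 16 kb, where 24 isoforms share the exonic block that begins at 280.8 kb.

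Exons covered little of the locus. The 29 isoforms were built from 58 distinct exons and 27 distinct introns, and together their exons covered 4554 nt, or 1.58% of the 288887 nt span, in 16 blocks. An isoform had between 2 and 11 exons (median 5, against 3 for all assembled lncRNAs) and a length between 364 and 2564 nt (median 1066 nt, against 1622 nt). The isoforms of this locus thus had more exons and were shorter than the typical assembled lncRNA, as a description with no test. The longest intron was 180286 nt and the shortest 93 nt.

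The distal and the downstream exons were connected by a pair of isoforms. TCONS_00058849 and TCONS_00058850, each with 11 exons, began at the distal start and continued through the 180286 nt intron into the downstream exons. Without them, the transcripts formed separate pieces of 23 and 4 isoforms. The other isoforms of the distal start had spans of no more than 51333 nt. All 6 isoforms of the distal start shared their first splice junctions, including a 789 nt intron, and differed further downstream.

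Downstream, the isoforms were variations on a common chain of exons. A 40 nt exon, 279.7 kb downstream of the distal start, was used by 22 isoforms, and a merged block of exons that begins 280.8 kb downstream of the distal start by 24. Beyond the 40 nt exon, 9 isoforms included a cassette exon at 126511056 (its downstream edge), 10 skipped it and 3 carried it fused to the next exon by a retained intron. Of 23 isoforms covering the neighbouring exon, at 126510196-126510949 where whole, 10 kept it whole, 6 removed a 93 nt intron from it and 7 removed a 498 nt intron. Of the 14 isoforms of the proximal start, 12 joined their first exon to the 40 nt exon by the same 4570 nt intron.

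Very short terminal exons were also listed. In 6 of 29 isoforms (20.7%) the first or the last exon was no longer than 30 nt, against 166 of 1924 assembled lncRNAs (8.63%). The first exon of TCONS_00059419 is listed with a length of 1 nt. All ends given here are those of the assembly, and no measurement of transcript ends was made. The nearest other assembled lncRNAs listed were TCONS_00055600, 2536 kb away at chr2:123934306-123967031 on the plus strand, and TCONS_00060896, 2240 kb away at chr2:129031953-129083563 on the minus strand.

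Summed over its 29 isoforms, the locus was expressed in every library. The sum in the left hemispheres was 7.88 FPKM in P45, 5.41 in P52, 6.89 in P61, 10.4 in P71 and 7.10 in P72. In the right hemispheres it was 4.59 FPKM in P45, 6.52 in P52, 3.57 in P61, 4.76 in P71 and 7.90 in P72. The sides overlapped: P45, P61 and P71 had the lower sum on the right, P52 and P72 on the left. Over all loci of assembled lncRNAs the median of the mean sum was 1.93 FPKM, and 83.6% of loci had a lower sum than this one, whose mean was 6.504 FPKM.

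The mean sum was 7.54 ± 1.84 FPKM on the left and 5.47 ± 1.73 FPKM on the right (SD, n = 5 each). On the scale of log2(FPKM + 0.1), which understates the change of low transcripts, the difference of right minus left was -0.48 (standard error 0.24, 95% interval -1.06 to 0.10). It did not pass the threshold of 0.05 in limma's paired fit across all rows, with an adjusted p of 0.255, and an exact permutation test over the 5 rats (two-sided, by sign flips) gave p = 0.25, where 5 rats allow no p below 0.063, or 2 of 32 sign patterns. In that fit 8.4% of the 19916 rows (loci of assembled lncRNAs and other transcripts) had an adjusted p under 0.05, and the median difference over all rows was -0.0078. Over the loci of assembled lncRNAs among these rows the median difference was -0.13. Without P61 the difference of the locus sum was -0.37 (adjusted p = 0.500 from limma). Weighting each isoform by its length, so that the sum follows fragments instead of a level per length, gave 7.16 ± 1.01 on the left and 5.19 ± 1.38 on the right (SD, n = 5 each), with an adjusted p of 0.176 from limma. So weighted, the sum was lower on the right in 4 of 5 rats, with a difference of only -0.04 in P72. The exact permutation p was 0.1875 (two-sided).

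**Figure D2:**
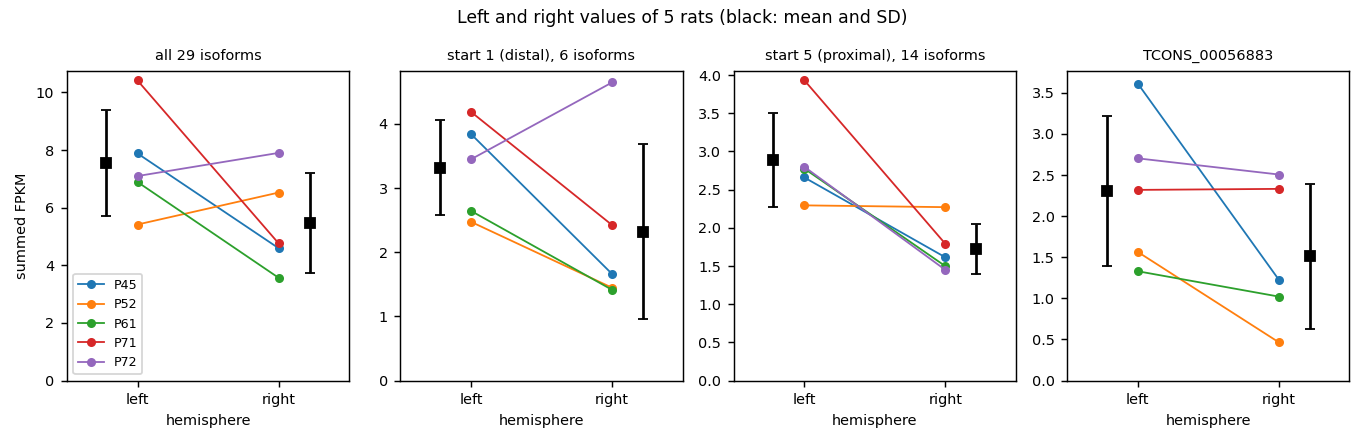
FPKM in the left and right hemisphere of each of 5 rats, joined by lines, for the sum of all 29 isoforms, the sums of the distal and the proximal start, and the leading isoform TCONS_00056883; black squares and bars are the mean and SD of each side, and each y axis starts at 0. In the panel of the proximal start every right value lies below the lowest left value of 2.29 FPKM, while the sides overlap in the other 3 panels.

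The depth of the libraries could be estimated only relative to the deepest. It lay between 62.6% and 100% (median 93.2%) on the left and between 58.2% and 79.3% (median 69.5%) on the right, and the right library was the less deep in 4 of 5 rats. FPKM is scaled by depth, and the part of depth in the differences given here was not tested. Fewer cells expressing a transcript and less RNA per cell cannot be told apart in bulk tissue.

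By level per length, the distal start carried on average the largest share of the sum of any start. It held 44.3% ± 4.79 on the left and 41.5% ± 14.1 on the right (SD, n = 5 each). By this measure the proximal start exceeded it in both hemispheres of P61 and in the right hemisphere of P52. Of the distal start's mean of 2.82 FPKM over 10 libraries, 1.91 FPKM was TCONS_00056883, an isoform of only 432 nt. Shares of the starts by fragments are not given here, and this ranking does not extend to them. The 6 isoforms of the distal start summed on the left to 3.84 FPKM in P45, 2.47 in P52, 2.64 in P61, 4.19 in P71 and 3.45 in P72. On the right they summed to 1.66 FPKM in P45, 1.45 in P52, 1.41 in P61, 2.42 in P71 and 4.65 in P72. The right was lower in 4 of 5 rats, and the right hemisphere of P72 had the highest value of all 10 libraries. Of those 4.65 FPKM, 1.45 came from TCONS_00060895, which was under 0.001 FPKM in 8 libraries. The difference of the distal start was -0.62 (standard error 0.25), with an adjusted p of 0.175 from limma and an exact permutation p of 0.125 (two-sided), and did not pass. Leaving out P72 gave -0.88 with an adjusted p of 0.0446 from limma, so that for this start the call turned on a single rat.

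The proximal start was the only start whose left and right libraries did not overlap. Its 14 isoforms summed on the left to 2.66 FPKM in P45, 2.29 in P52, 2.77 in P61, 3.93 in P71 and 2.80 in P72. On the right they summed to 1.61 FPKM in P45, 2.27 in P52, 1.497 in P61, 1.79 in P71 and 1.45 in P72. Every right value lay below every left value, although in P52 the sides differed by only 0.01 on the log2 scale. The separation rested on 1 isoform in 1 library. TCONS_00060894, under 0.001 FPKM in 8 libraries, gave 2.11 of the 3.93 FPKM of P71 on the left. The 12 isoforms with the 4570 nt intron were at 1.73 FPKM there, against 2.27 FPKM in P52 on the right. For these 12 the sides thus overlapped, while the right was the lower in each rat. Of the 20347 rows of the table with assembled lncRNAs summed by start, 3.71% had every right library below every left library.

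The mean of the proximal start was 2.89 ± 0.615 FPKM on the left and 1.72 ± 0.333 FPKM on the right (SD, n = 5 each), a difference of -0.71 (standard error 0.21, 95% interval -1.21 to -0.21). It was lower on the right in 5 of 5 rats, with an exact permutation p of 0.063 (two-sided), the smallest possible here. The adjusted p from limma's paired fit was 0.0880, so it did not pass the threshold of 0.05, which 8.05% of all rows passed. Without the pairing by rat the adjusted p was 0.0409 for the same difference. Of the 6 starts tested, the distal and the proximal start had an unadjusted p under 0.05 (0.0458 and 0.0124), against 27.2% of all rows of that table.

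The other starts were low and uneven between libraries. Start 2 averaged 0.617 ± 0.638 FPKM on the left and 0.567 ± 0.282 on the right, start 3 0.206 ± 0.283 and 0.155 ± 0.203, and start 6 0.393 ± 0.309 and 0.276 ± 0.0836 (SD, n = 5 each). Start 4 averaged 0.0880 ± 0.196 and 0.308 ± 0.551 FPKM, most of it in the right hemisphere of P52 at 1.27 FPKM. Start 7 averaged 0.0236 ± 0.0529 and 0.120 ± 0.269 FPKM (SD, n = 5 each) and was under the filter of a mean of 0.1 FPKM, so it was not tested. For starts 2, 3, 4 and 6 the SD of the sides was of the order of the mean or above it on at least 1 side, and their adjusted p from limma lay between 0.671 and 0.963.

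**Figure D3:**
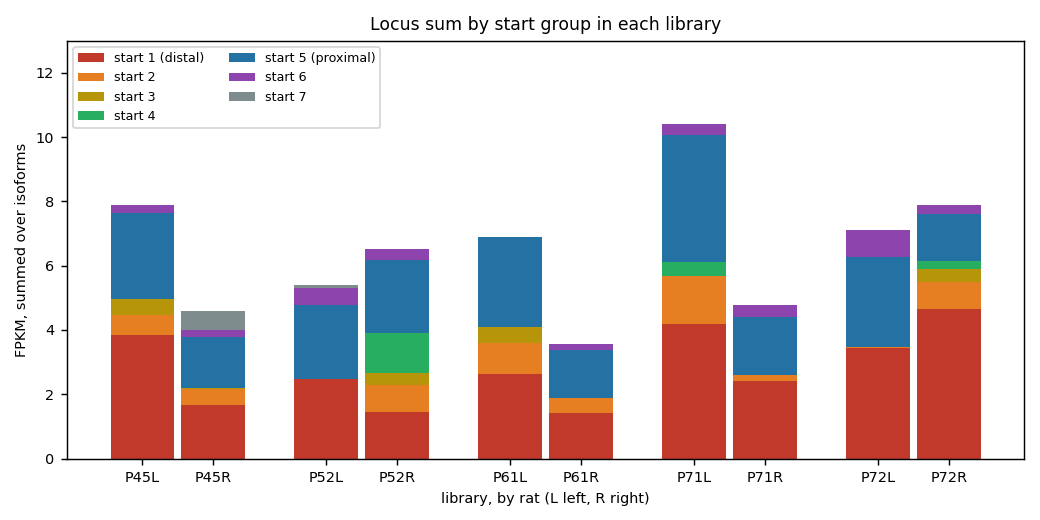
FPKM summed over the isoforms of each start group (colours), stacked for each of 10 libraries in pairs of left (L) and right (R) by rat, with the y axis from 0. The distal and the proximal start make up most of each bar, and start 4 is visible mainly in P52R at 1.27 FPKM and P71L at 0.439 FPKM.

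The shares of the locus sum taken by each start showed no difference between sides that passed. The proximal start held 38.7% ± 3.24 of the sum on the left and 33.6% ± 8.98 on the right (SD, n = 5 each), a difference of -5.16 percentage points with an SD of 9.67, which was -1.17 without P72 and -1.67 over the isoforms with a mean of at least 0.1 FPKM. Its share ran from 33.7% to 42.4% on the left and from 18.3% to 42.0% on the right, so the sides overlapped. The levels of the distal and the proximal start had a Pearson correlation of 0.43 (Spearman 0.38) over the 10 libraries, a description over libraries that include both sides of each rat.

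Splicing choices were also compared as shares. Among isoforms using the 40 nt exon, those that included the cassette exon held 54.4% ± 10.1 on the left and 48.8% ± 9.49 on the right. Those that skipped it held 31.3% ± 10.3 and 39.5% ± 9.31, and those with the retained intron 14.3% ± 5.50 and 11.7% ± 2.38 (SD, n = 5 each). Inclusion was thus the most common form on average on both sides, but in the right hemispheres of P52 and P71 and in the left hemisphere of P45 skipping exceeded it.

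The neighbouring exon, called the long exon here, was whole in 45.8% ± 11.4 of the FPKM covering it on the left and 38.2% ± 12.8 on the right. The 498 nt intron was removed in 46.9% ± 11.01 and 49.8% ± 7.05, and the 93 nt intron in 7.37% ± 7.33 and 12.02% ± 7.42 (SD, n = 5 each). For all 13 shares, of starts and of splicing, the exact permutation p over rats (two-sided) was between 0.3125 and 0.9375, and the adjusted p between 0.8125 and 0.9375. Each of these differences was smaller than its SD over the 5 rats.

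A single short isoform led the locus by level per length. TCONS_00056883, at chr2:126789635-126791792, has 3 exons and 432 nt and begins at the distal start. It was at 3.61 FPKM in P45, 1.56 in P52, 1.33 in P61, 2.32 in P71 and 2.70 in P72 on the left, and at 1.23, 0.465, 1.02, 2.33 and 2.51 FPKM in the same rats on the right. It was the only isoform with at least 0.1 FPKM in every library, and it was the highest isoform in 9 of 10 libraries, with 19.3% to 49.0% of the locus sum where it led. FPKM is a level per length and this isoform is short: by fragments (FPKM times length) it led in 2 of 10 libraries, P45 on the left and P72 on the right, and held 2.96% to 23.1% of the fragments of the locus. The sides overlapped. Its mean was 2.31 ± 0.918 FPKM on the left and 1.51 ± 0.877 FPKM on the right (SD, n = 5 each), lower on the right in 4 of 5 rats, and the difference of -0.70 (standard error 0.31) had an adjusted p of 0.213 from limma. Without it, the sum of the other isoforms differed by -0.44, with a standard error of 0.35 and an adjusted p of 0.465 in limma.

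In the right hemisphere of P52 the highest isoform was TCONS_00059423, of the proximal start, at 1.38 FPKM, against 0.465 FPKM for TCONS_00056883. In the left hemisphere of P52 TCONS_00059423 was listed below 0.001 FPKM. It is named here because of that value, and its difference over 5 rats was 1.06 with a standard error of 0.76 (adjusted p = 0.417 from limma).

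TCONS_00056881, at chr2:126509871-126517125, had the next highest mean, 0.404 FPKM over 10 libraries. This isoform of the proximal start has 4 exons and 1515 nt, includes the cassette exon and ends in an exon of 1079 nt. It was at 0.900 FPKM in P45, 0.546 in P52, 0.314 in P71 and 1.13 in P72 on the left, and at 0.115, 0.329, 0.312 and 0.392 FPKM in P45, P52, P61 and P72 on the right, with values under 0.001 FPKM in the left hemisphere of P61 and the right of P71. It was lower on the right in 4 of 5 rats and higher in P61, and the difference of -0.83 (standard error 0.66) had an adjusted p of 0.472 from limma. It was -1.54 without P61, -0.48 without P45 and -0.52 without P71.

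TCONS_00058850, 1 of the isoforms that connect the distal start with the downstream exons, at chr2:126506416-126791787, moved the same way in all 5 rats. It has 11 exons and 2159 nt. On the left it was at 0.231 FPKM in P45, 0.890 in P52, 0.506 in P61, 0.308 in P71 and 0.230 in P72, and on the right at 0.185, 0.420, 0.257, under 0.001 and 0.10 FPKM in the same order. The sides overlapped, since the right hemispheres of P52 and P61 were above the left hemispheres of P45 and P72. The difference was -0.93 (standard error 0.37), with an unadjusted p of 0.0413, an adjusted p of 0.170 from limma, and an exact permutation p of 0.063 (two-sided), the smallest possible. The longest isoform, TCONS_00058849, connects the same exons over 2564 nt and keeps more of the long exon. It was at 0.0199 FPKM in the left hemisphere of P52, 0.136 in the right of P61, 0.0482 in the right of P72 and under 0.001 FPKM in the other 7 libraries, below the filter, and was not tested.

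The remaining isoforms of high mean were present in some libraries and near 0 in others. TCONS_00059943 (chr2:126756333-126791778, distal start, 4 exons, 455 nt) was at 0.809, 1.24 and 0.515 FPKM on the left of P61, P71 and P72 and at 0.246, 0.0926 and 0.447 FPKM on the right of P45, P71 and P72. The other 4 libraries were under 0.001 FPKM, so that P45 was higher on the right and P61 on the left. Its difference was -0.87 (standard error 0.78, adjusted p = 0.526 from limma). With a rat left out it was -1.54 without P45, -0.29 without P61 and -0.39 without P71.

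TCONS_00060893 (chr2:126506206-126560196, start 2, 6 exons, 1202 nt) was at 0.569 and 0.619 FPKM on the left of P61 and P71 and under 0.001 FPKM on the left of the other 3 rats. On the right it was at 0.146, 0.841, 0.218 and 0.719 FPKM in P45, P52, P61 and P72 and under 0.001 FPKM in P71. TCONS_00061394 (chr2:126507292-126517107, proximal start, 5 exons, 574 nt) was at 0.416, 0.378 and 0.335 FPKM on the left of P45, P52 and P61, at 0.147, 0.495, 0.727 and 0.424 FPKM on the right of P45, P52, P61 and P72, and under 0.001 FPKM elsewhere. Both had a higher mean on the right, with differences of 0.73 (standard error 0.96) and 0.51 (standard error 0.53) and adjusted p of 0.675 and 0.585 from limma. The first was 0.10 without P52 and 0.15 without P72, and the second 0.045 without P72.

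**Figure D4:**
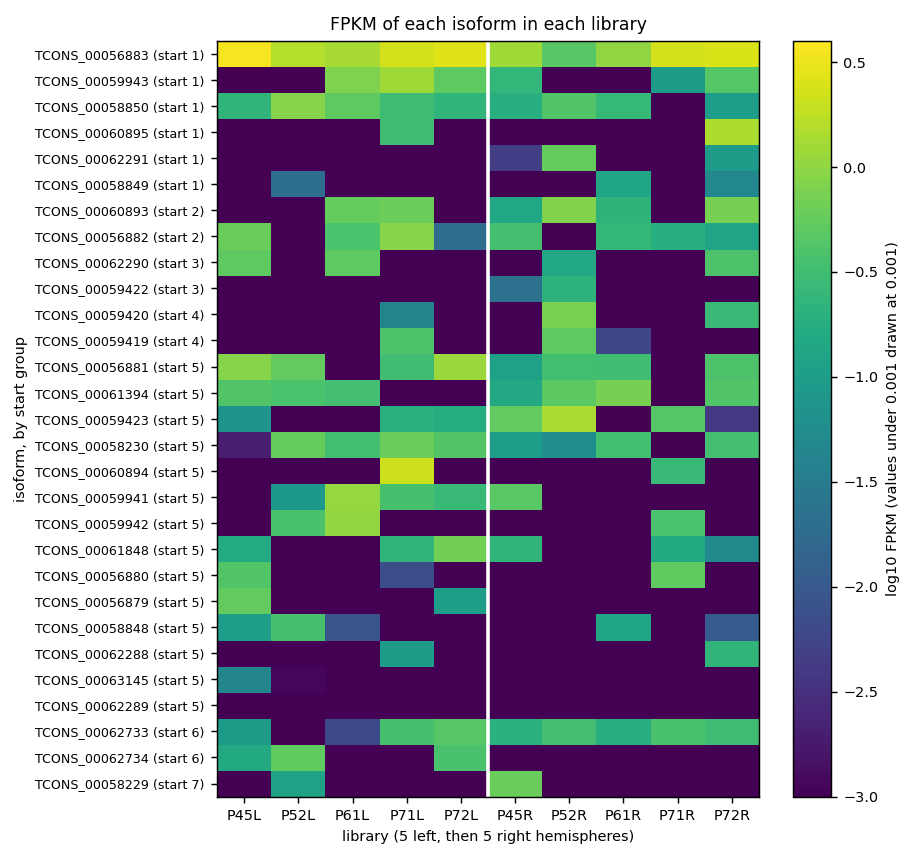
FPKM of the 29 isoforms (rows, ordered by start group and mean) in the 5 left and 5 right libraries (columns, parted by a white line), coloured on a log10 scale with values under 0.001 FPKM drawn at 0.001. Only TCONS_00056883 is at 0.1 FPKM or above in all 10 libraries, and 53.8% of the cells are under 0.001.

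This presence and near absence ran through the whole locus. No value of the 29 isoforms in 10 libraries was listed at exactly 0, but 156 of 290 values (53.8%) were below 0.001 FPKM, against 22.4% of the values of all assembled lncRNAs. Loci with many isoforms were closer to it: the median over the 36 loci with at least 10 isoforms was 38.8%. The loci with the next most isoforms, on chromosomes 10 and 1, had 56.8% and 40.9%. With at least 0.1 FPKM required, 11 isoforms of this locus were present in 5 or more libraries, 16 in 1 to 4 libraries and 2 in none. In 7 isoforms a library below 0.001 FPKM stood beside another of at least 1 FPKM. An example, chosen after its values were seen, is TCONS_00060894, at 2.11 FPKM in the left and 0.275 in the right hemisphere of P71 and under 0.001 FPKM in the other 8 libraries.

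In each library 8 to 14 isoforms had at least 0.1 FPKM, and 6 to 11 isoforms made up 90% of the sum. The effective number of isoforms (the number of equally abundant isoforms with the same entropy) was 8.32 ± 1.51 on the left and 8.68 ± 2.07 on the right (SD, n = 5 each). The means of the sides were closer than their SDs, while which isoforms had at least 0.1 FPKM varied from library to library. Whether isoform use or the division of shared reads varied was not tested. Among the 153 pairs of the 18 isoforms tested, the Pearson correlation over 10 libraries had a median of 0.02, ran from -0.79 to 0.72 and was below 0 in 75 pairs. The values of a pair come from the same libraries, and isoforms with exons in common also share reads. These correlations are given as a description.

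As single rows, none of the isoforms differed between sides past the threshold. Of the 29 isoforms, 18 passed the filter of a mean of at least 0.1 FPKM and were tested, and 11 were below it. None of the 18 had an adjusted p under 0.05 in limma's paired fit, where 7.71% of all 20936 transcripts tested did, and the adjusted p ran from 0.170 to 0.845. An unadjusted p under 0.05 was reached by 1 of the 18, TCONS_00058850, against 26.6% of all transcripts. The difference was below 0 in 12 isoforms and above 0 in 6, with a median of -0.49, against -0.012 over all transcripts tested and -0.16 over the assembled lncRNAs.

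**Figure D5:**
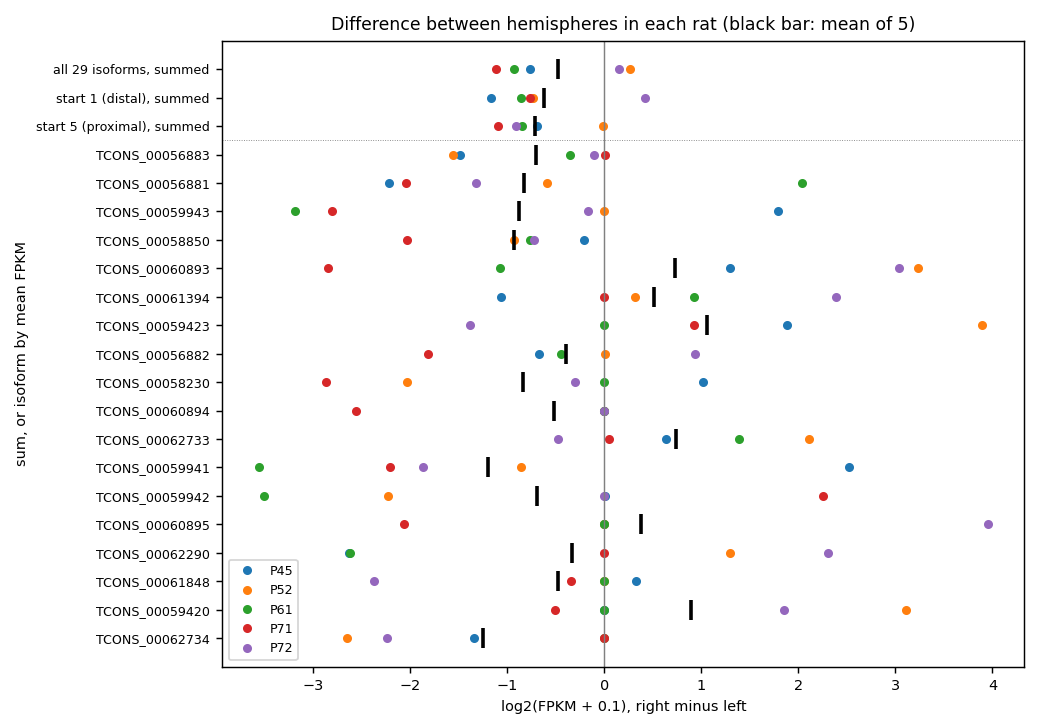
Difference of right minus left in log2(FPKM + 0.1) for each of 5 rats (coloured points) and their mean (black bars), for the sums of all isoforms, of the distal and of the proximal start (top), and for the 18 isoforms tested, ordered by mean FPKM. Points of the sums lie closer together (SD 0.64 for the locus sum) than those of most isoforms (median SD 1.55), and TCONS_00058850 is the only isoform with all 5 points on 1 side of 0.

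At this locus the rats differed far more for an isoform than for the sum. The SD over rats of the difference was between 0.67 and 2.64 for the 18 isoforms (median 1.55), 0.64 for the locus sum, 0.61 for the distal and 0.41 for the proximal start. The median over all loci of assembled lncRNAs was 0.61 for their sums. A difference of the size seen in the isoforms was thus mostly smaller than its spread between rats. Among the 36 loci with at least 10 isoforms, the median over loci of the median SD of their isoforms was 1.60. The SD of the sum was not the smaller in every such locus. On chromosome 10 (25 isoforms) it was 2.21 against a median of 2.15 for the isoforms, and on chromosome 1 (22 isoforms) 1.66 against 1.96.

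Summed over the 22 isoforms that use it, the 40 nt exon was at 4.27 FPKM in P45, 3.73 in P52, 4.75 in P61, 4.33 in P71 and 3.88 in P72 on the left. On the right it was at 2.51 FPKM in P45, 5.50 in P52, 2.55 in P61, 2.06 in P71 and 3.18 in P72. It was lower on the right in 4 of 5 rats, and the right hemisphere of P52 alone lay above all left values. The means were 4.19 ± 0.402 and 3.16 ± 1.36 FPKM (SD, n = 5 each). The isoforms with the 180286 nt intron, which connects the distal start with the downstream exons, summed to a mean of 0.333 FPKM. Those with the 789 nt intron at the distal start summed to 2.82 FPKM. These are sums of isoform values, and no reads across junctions were counted.

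The locus was compared with both loci that came next in number of isoforms. The locus on chromosome 10 summed to 7.32 ± 5.77 FPKM on the left and 4.37 ± 4.09 on the right, and that on chromosome 1 to 10.8 ± 5.45 and 7.40 ± 4.74 FPKM (SD, n = 5 each). The difference between hemispheres of the chromosome 2 locus minus theirs was -0.01 (SD 1.75) and 0.16 (SD 2.06), both with an exact permutation p of 0.9375 (two-sided), so no difference in response was detectable against that spread. Among the 36 loci with at least 10 isoforms it ranked 14 by mean sum and 6 by the share of values under 0.001 FPKM. In 31 of these 36 loci the sum was lower on the right on average, and the lowest adjusted p among them in limma's paired fit was 0.0527. Over all loci of assembled lncRNAs tested, the median difference was -0.13.

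Among 15814 rows with a mean of at least 1 FPKM, the level most like the locus sum over the 10 libraries was that of ENSRNOT00000026941, with a Pearson correlation of 0.96 on log2(FPKM + 0.1) (Spearman 0.96). It stayed at 0.90 without the 2 libraries farthest from the median. This transcript was at 6.07 ± 1.11 FPKM on the left and 4.74 ± 1.46 on the right (SD, n = 5 each). ENSRNOT00000039864 followed with a Pearson correlation of 0.95, at 19.0 ± 3.51 and 12.9 ± 4.80 FPKM (SD, n = 5 each), and the third row also reached 0.95. These are the highest of 15814 correlations over libraries that share rats and sides, given with no test, and neither identifier comes with a gene name in the deposited table.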

How the data were processed

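RNA-seq libraries of the left and right hemispheres of 5 rats were analysed, 10 libraries in all. The authors mapped reads with TopHat to the rn5 genome, assembled and quantified transcripts with Cufflinks, kept multi-exon transcripts without coding potential as lncRNAs, and deposited FPKM values (normalized for transcript length and mapped reads) with a list of exon positions on rn5. Whether reads were counted by strand is not given in the sources used here. FPKM values hold no counts, so no count model, no interval from read counts and no detection floor was used, and p-values and 95% intervals rest on the spread between rats.

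The members and lists were chosen with earlier results of these data known. FPKM values were summed over the isoforms of the locus and of each start (5′ ends within 500 nt), and log2(FPKM + 0.1) of rows with a mean of at least 0.1 FPKM was fitted by lmFit of limma 3.58.1 (R 4.3.3) with the rat as a block and variances moderated along the mean-variance trend, and p-values were adjusted over the whole table (Benjamini-Hochberg). The block was used because both sides come from the same animal. Left and right deviations from the side means correlated within a rat by -0.13 to 0.18. Shares and differences between loci were tested with two-sided exact sign-flip permutation tests over all 32 sign patterns, adjusted over the 13 shares and over both loci. Relative depth was taken from the commonest ratio of low values between pairs of libraries, which contradicted each other by at most 0.138 on the log2 scale. The fits were tested on simulated data. Sums and permutation tests were computed with pandas 2.3.3 and numpy 2.4.6 in Python 3.11.15, and figures drawn with matplotlib 3.10.9.

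Named isoforms are the 6 with the highest mean, any with an adjusted p under 0.05 and the longest. TCONS_00059423, TCONS_00060894, TCONS_00060895 and TCONS_00058229 were named after their values were seen. Alternatives were other pseudocounts, filters and scalings, no block, no trend, no moderation, other ways of joining transcripts, and leaving out each rat. Small RNA data were not analysed here, no sequence is printed, and markers of cell types were not read because no table pairing the Ensembl identifiers with symbols was used here.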

Additional observations from a re-analysis of the deposited data

Results flagged for a closer look

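The locus sum, the 7 start sums and the 6 isoforms of highest mean were examined on each side, 28 groups of 5 libraries in all. In 4 groups an extreme library stood apart, its gap to the nearest library exceeding 0.71 of the group's range (Dixon's critical value for 5 values). For normally distributed values that marks about 1 in 20 groups. FPKM near 0 in most libraries are not so distributed, and a lone library above 0 gives a ratio near 1. The 4 groups can therefore not be set against that rate. All 4 were in low starts. For start 4 the left library of P71 stood apart (ratio 0.999), at 0.439 FPKM against at most 0.000525 FPKM in the other left libraries, and on the right the library of P52 (ratio 0.793), at 1.27 FPKM against at most 0.263 FPKM. For start 7, that of TCONS_00058229, the left library of P52 (ratio 1) was at 0.118 FPKM and the right library of P45 (ratio 1) at 0.602 FPKM, with the other libraries near 0.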

How the results depend on the processing

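The locus sum stayed lower on the right under all 17 alternatives and passed the adjusted threshold of 0.05 under none. Its difference ran from -0.66 to -0.32 with a rat left out and from -0.49 to -0.42 otherwise, and the adjusted p from limma from 0.164 to 0.500. No isoform passed under any alternative run, and the 6 isoforms of highest mean kept their direction, at differences from -1.54 to 1.62 with a rat left out. The sum without the leading isoform and the sum weighted by length were chosen after seeing the data. The distal start ran from -0.88 to -0.48 with a rat left out and passed only without P72. A window of 100 nt parts off the 2 isoforms of the distal start whose 5′ ends lie at 126791939. Its other isoforms then summed to a difference of -0.84 (adjusted p = 0.0680 from limma), so this value is not for the same set. The proximal start was lower on the right under all 16 alternatives and passed only in the fit with no replicate block, at -0.71. Dropping the block changed no other call.

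The low starts had no stable direction. With a rat left out, start 2 ran from -0.17 to 1.27, start 3 from -0.69 to 0.54, start 4 from -0.12 to 1.43 and start 6 from -0.48 to 0.17. With a pseudocount of 0.01 start 3 was at 0.16 and start 6 at 0.24, and start 6 was at 0.023 with FPKM rescaled to TPM. In percentage points, the difference in share with a rat left out ran from -6.15 to 2.40 for the distal start, -2.14 to 1.10 for start 3, -0.184 to 5.75 for start 4, -6.87 to -1.17 for the proximal start, -1.74 to 1.46 for start 6, -0.546 to 3.28 for start 7 and -1.54 to 5.10 for the removed 498 nt intron. As log2 odds the shares of starts 3 and 6 differed by 0.63 and 0.72. The difference from the chromosome 10 locus ran from -0.47 to 0.51 and was 0.055 with a pseudocount of 1, and that from the chromosome 1 locus ran from -0.58 to 0.70. The causes were not tested. A filter of 1 FPKM leaves of the isoforms only TCONS_00056883 and of the starts only the distal and proximal ones, so it gave no value for the rest. A window of 2000 nt joins start 6 to the proximal start and gave no value for start 6. The depth behind each value is known only relative to other libraries, and the 11 isoforms with a mean under 0.1 FPKM were not tested.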
